A study of Mus musculus with 12 samples.

Results

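The transcription factor p53, encoded by Trp53, and 9 genes that it is known to activate were followed through the culture and compression of mouse muscle stem cells (MuSCs). The 10 genes (Trp53, Mdm2, Ccng1, Phlda3, Trp53inp1, Bbc3, Bax, Sesn1, Eda2r and Zmat3) were chosen by name for their function, but with earlier results of these data known. All 10 were found among the 55335 genes in the count files and passed the filter on low counts. p53 is held at a low level in unstressed cells by Mdm2, a ubiquitin ligase that marks it for degradation, and Mdm2 is itself a p53 target, which closes a feedback loop. Stress such as DNA damage stabilizes the protein, which then switches on genes that halt the cell cycle, repair DNA or start apoptosis. Since p53 is regulated largely at the level of the protein, its mRNA and the mRNAs of its targets need not move together.

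All cells were ZsGreen+ MuSCs sorted from the hindlimbs of Pax7-ZsGreen mice of 3 to 6 months, a transgenic reporter strain in which the Pax7 promoter drives the green fluorescent protein. Freshly isolated cells (F) went straight into TRIzol as they were sorted. The 2d-U cells were cultured for 2 days and the 5d-U cells for 5 days, both without compression. The 2+3d-C cells were cultured for 2 days without and then 3 days under a PDMS pillar device that limits their height. Cultured cells grew in growth medium on plastic coated with Matrigel and fibronectin. There were 3 RNA-seq libraries in each group, numbered here as in the labels, and the labels do not say whether these came from separate animals, so p-values measure only the spread between these libraries.

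The libraries held 12540745 to 62424851 reads assigned to genes. Olfactory, vomeronasal and taste receptor, alpha-defensin and keratin-associated protein genes, which are silent in muscle, held 3.78 and 0.647 reads per kb in 5d-U libraries 1 and 6 and 5.08 and 7.25 in F libraries 4 and 5, against at most 0.240 in the other 8 libraries. Markers of MuSCs (Pax7, Myf5, Myod1, Cdh15, Vcam1, Itga7, Calcr, Sdc4 and Chodl) were present in every group, with summed levels of 2667 to 6969 CPM (reads scaled to library size) in F, 2133 to 2537 CPM in 2d-U, 1972 to 2876 CPM in 5d-U and 13970 to 15670 CPM in 2+3d-C libraries. Most of their reads over all libraries lay on Myod1 (799806), Sdc4 (632581) and Vcam1 (357722), beside 13985 on Pax7 and 8144 on Calcr. The paper uses MyoD to mark progenitors and committed cells, so these sums do not measure the stem cell state. The 8 dividing cell markers (Mki67, Top2a, Ccnb1, Ccna2, Cdk1, Bub1, Plk1 and Aurkb) summed to 1691 to 1917 CPM in 2d-U and 1424 to 2137 CPM in 5d-U libraries, to 37.4 to 106 CPM in F libraries and to 3.26 to 12.5 CPM in 2+3d-C libraries, in which Aurkb, Bub1, Mki67 and Plk1 had 3 reads or fewer in every library. Markers of other muscle cell types moved with the groups too: the 6 fibroadipogenic markers summed to 2092 to 5790 CPM in F and 443 to 972 CPM in 2+3d-C libraries, beside 0.705 to 11.4 CPM in 2d-U and 8.72 to 55.1 CPM in 5d-U libraries. The 6 endothelial markers summed, in the same order, to 1055 to 1417, 90.9 to 216, 2.73 to 5.52 and 2.16 to 30.1 CPM. In the 5d-U libraries, the group in which Bax, Phlda3 and Ccng1 were highest, the 6 myofiber markers summed to 163.5 to 3509 CPM and the 6 pericyte and smooth muscle markers to 60.1 to 729.9 CPM, against 52.3 to 89.7 and 62.7 to 87.8 CPM in 2d-U, 66.1 to 199 and 258 to 419 CPM in 2+3d-C and 29.1 to 2541 and 697 to 939 CPM in F libraries. Immune, glial and erythroid markers summed to 461 to 1050, 427 to 726 and 148 to 610.5 CPM in F and to 7.63 to 79.8, 183 to 610.2 and 25.1 to 291 CPM in 2+3d-C libraries, and to at most 2.44, 2.62 and 0.199 CPM in 2d-U and 118, 10.4 and 0.293 CPM in 5d-U libraries. The part of these cells, of the reads on silent genes and of cell division in the differences below was not tested. In bulk RNA, fewer cells that express a gene and less of its RNA per cell cannot be told apart.

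p53 binds DNA as a tetramer, at response elements built of a pair of half-sites of 10 bases each. The windows from 250 bases before to 50 bases after the RefSeq transcription starts (GRCm38.p6, the assembly of mm10) were searched for the p53 consensus half-site, which reads the same on both strands, and for full sites of 20 bases made of a pair of adjoining half-sites that keep the core letters CNNG in each and have up to 3 mismatches in all. An exact half-site was found in 8.36% of all 32851 windows, and a full site in 1.38%. Of the 10 genes, 8 had a window, and 5 of these 8 held an exact half-site (Trp53, Mdm2, Ccng1, Bax and Sesn1) while 4 held a full site (Trp53, Ccng1, Sesn1 and Bbc3). Some genes have several windows, and counted by window, as the shares of all windows are, a half-site stood in 5 of 11 (45.5%) and a full site in 4 of 11 (36.4%). Neither was found in the windows of Phlda3 and Eda2r, and Trp53inp1 and Zmat3 were not searched. Among the other p53 targets described further on, 7 of the 26 genes with a window held a half-site and 4 a full site, or 25% and 15.6% of their 32 windows. The matches are shown because they include genes that fell under compression (Ccng1, Bax, Bbc3) and genes that did not pass the test there (Trp53, Mdm2, Sesn1). Each line gives the match in capitals, as a full site where there is one and otherwise as the half-site, with 25 bases on either side, in the direction of transcription.
Ccng1: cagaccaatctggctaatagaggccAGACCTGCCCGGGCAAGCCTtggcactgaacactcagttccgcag
Bbc3: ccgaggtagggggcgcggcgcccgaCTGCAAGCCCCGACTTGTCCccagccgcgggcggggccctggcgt
Sesn1: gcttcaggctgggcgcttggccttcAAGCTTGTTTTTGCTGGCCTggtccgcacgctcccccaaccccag
Trp53: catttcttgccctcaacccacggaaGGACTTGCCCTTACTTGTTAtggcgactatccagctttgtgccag
Bax: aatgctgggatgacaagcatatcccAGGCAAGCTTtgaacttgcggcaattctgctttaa
Mdm2: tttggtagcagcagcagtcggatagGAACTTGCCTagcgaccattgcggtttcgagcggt
The printed stretches, flanks included, lie at chr11:40755437-40755506 on the minus strand (Ccng1), chr7:16309461-16309530 on the plus strand (Bbc3), chr10:41887241-41887310 on the plus strand (Sesn1), chr11:69580259-69580328 on the plus strand (Trp53), chr7:45467065-45467124 on the minus strand (Bax) and chr10:117710910-117710969 on the minus strand (Mdm2). Within them, the full site of Ccng1 lay 195 to 176 bases before the start and had 1 mismatch. The full sites of Bbc3 (97 to 78 bases before the start), Sesn1 (173 to 154 bases) and Trp53 (75 to 56 bases) had 3 mismatches each. The exact half-sites of Bax and Mdm2 lay 201 to 192 and 186 to 177 bases before the start. None of the 6 stretches overlapped an exon of the GENCODE annotation of this assembly. Those of Bbc3 and Sesn1 lay within introns of their own genes, upstream of an internal start, and that of Bax within an intron of Gm45808. The bases after the Bbc3 start were not found unbroken in a GENCODE transcript, as they were for the other genes shown. The Bbc3 start and the distance to it are thus less sure. A match in these letters is a description and says nothing of binding, which was not measured.

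Levels are given per length as RPKM, reads scaled to exon length in kilobases and to TMM-adjusted library size. Trp53 itself (mm10 chr11:69580359-69591873, plus strand) was low in F cells, with 18.3, 16.6 and 28.7 RPKM in libraries 1, 4 and 5. It read 74.2, 61.7 and 64.4 RPKM in 2d-U libraries 1, 2 and 3, 106, 42.3 and 110 in 5d-U libraries 1, 2 and 6, and 68.1, 117 and 85.0 in 2+3d-C libraries 4, 5 and 10. Every cultured library, compressed or not, thus lay above every F library, while the 3 cultured groups overlapped one another. Relative to F, Trp53 rose by a log2 fold change of 1.65 ± 0.43 (SE) in 2d-U cells (edgeR adjusted p = 0.0104), by 2.02 ± 0.44 in 5d-U cells (edgeR adjusted p = 0.0042) and by 2.08 ± 0.44 in 2+3d-C cells (edgeR adjusted p = 0.0181). Without F library 4 the last of these did not pass (edgeR adjusted p = 0.0832), nor did the rise in 5d-U cells without F library 1 (edgeR adjusted p = 0.0507). From 5d-U to 2+3d-C cells the log2 difference was 0.06 ± 0.42 (edgeR adjusted p = 0.918), and it changed sign without TMM scaling. Trp53-ps, a pseudogene copy of Trp53 on chromosome 17, read 2.52% to 4.37% of the Trp53 level in CPM, so that some reads may be shared between both copies.

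Mdm2 (chr10:117688875-117710758, minus strand), the ligase that restrains p53, passed the test in none of the 6 comparisons. Its means were 28.7 ± 7.6 (SD, n = 3) RPKM in F, 26.4 ± 3.1 in 2d-U, 47.2 ± 32.3 in 5d-U and 29.4 ± 6.0 in 2+3d-C cells. The 5d-U libraries 1, 2 and 6 read 84.3, 31.6 and 25.7 RPKM, so that 1 library was high and the others lay within the range of F, and the libraries of every pair of groups overlapped. The log2 differences lay between -0.69 ± 0.45 (2+3d-C against 5d-U, edgeR adjusted p = 0.236) and 0.84 ± 0.45 (5d-U against 2d-U, edgeR adjusted p = 0.196), and none had an unadjusted p under 0.05 or was called by DESeq2. The smallest difference, 0.03 ± 0.45 between 2+3d-C and F cells (edgeR adjusted p = 0.973), turned negative without TMM scaling (-0.39).

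**Figure D1:**
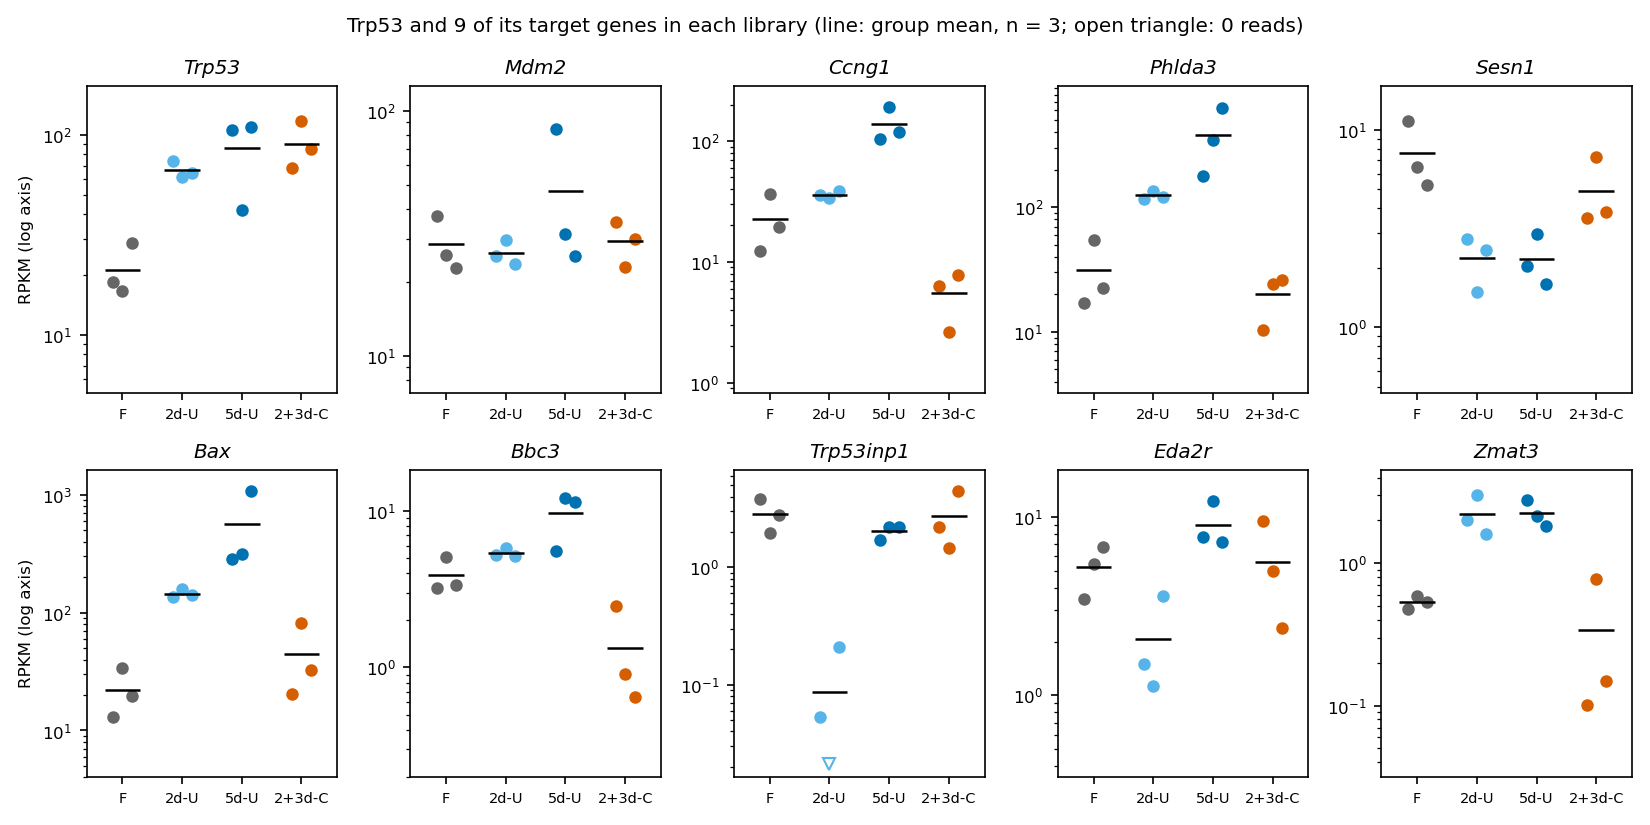
RPKM (log axis) of the 10 p53 genes in each of the 12 libraries, with 1 panel per gene, points for libraries coloured by group, a line at each group mean and an open triangle for the 2d-U library with 0 reads of Trp53inp1. Ccng1, Phlda3, Bax, Bbc3 and Zmat3 lie lower in all 3 2+3d-C libraries than in any 5d-U library, Trp53 lies lower in the 3 F libraries than in any other, and Mdm2 overlaps between all groups.

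Of the members that act on the cell cycle and on growth signalling, Ccng1 and Phlda3 fell under compression and Sesn1 did not. Ccng1 (chr11:40748552-40755311, minus strand) encodes cyclin G1, which recruits a phosphatase to Mdm2. It read 12.4, 36.1 and 19.5 RPKM in F libraries 1, 4 and 5, 35.7, 33.6 and 38.3 in the 2d-U libraries, 104, 190 and 118 in 5d-U libraries 1, 2 and 6, and 6.26, 2.65 and 7.73 in 2+3d-C libraries 4, 5 and 10. The 3 compressed libraries lay below every other library of the study. Ccng1 fell 24.8-fold in 2+3d-C against 5d-U cells, with a log2 fold change of -4.63 ± 0.55 (edgeR adjusted p = 6.753e-05), and 6.45-fold against 2d-U cells (edgeR adjusted p = 0.00162). Against F it fell by 2.03 ± 0.49 on the log2 scale (edgeR adjusted p = 0.0303). This last call was lost without 2+3d-C library 5 (edgeR adjusted p = 0.0802), F library 4 (0.137) or F library 5 (0.0687), and the fold fell to a log2 value of -1.15 when the 4 libraries with reads on silent genes were left out. In 5d-U cells Ccng1 rose 6.05-fold over F (edgeR adjusted p = 0.00211).

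Phlda3 (chr1:135766119-135769136, plus strand), which encodes a small protein that restrains Akt, was highest in 5d-U and lowest in F and compressed cells. Its levels were 17.1, 55.1 and 22.4 RPKM in F libraries 1, 4 and 5, 117, 134 and 122 in the 2d-U libraries, 177, 345 and 627 in 5d-U libraries 1, 2 and 6, and 10.4, 24.3 and 26.1 in 2+3d-C libraries 4, 5 and 10. The compressed and F libraries overlapped, and both lay below all uncompressed cultures. Phlda3 fell 19.0-fold in 2+3d-C against 5d-U cells (log2 fold change -4.24 ± 0.61, edgeR adjusted p = 0.000294) and 6.16-fold against 2d-U cells (edgeR adjusted p = 0.0043). It rose 3.93-fold in 2d-U (edgeR adjusted p = 0.0149, and 0.0609 without F library 5) and 12.1-fold in 5d-U cells (edgeR adjusted p = 0.000808) over F. Between 2+3d-C and F cells the log2 difference was -0.65 ± 0.54 (edgeR adjusted p = 0.413).

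Sesn1 (chr10:41809935-41908424, plus strand), a sestrin that protects against oxidative stress and restrains mTORC1, was highest in F and compressed cells. It read 11.1, 6.44 and 5.26 RPKM in F libraries 1, 4 and 5, 2.80, 1.51 and 2.46 in the 2d-U libraries, 2.05, 2.97 and 1.66 in 5d-U libraries 1, 2 and 6, and 3.58, 7.28 and 3.83 in 2+3d-C libraries 4, 5 and 10. F and compressed libraries overlapped, and each lay above all uncompressed cultures. Sesn1 fell by 1.76 ± 0.56 on the log2 scale in 2d-U against F cells (edgeR adjusted p = 0.0257) and by 1.77 ± 0.56 in 5d-U against F cells (edgeR adjusted p = 0.0359). The call in 5d-U cells was lost in each of the 9 fits that left out a library of F, 2d-U or 5d-U (edgeR adjusted p of 0.056 to 0.178), and that in 2d-U cells without any 1 of the 2d-U libraries or F library 4 (0.0541 to 0.0982). In 2+3d-C against 5d-U cells its log2 fold change was 1.13 ± 0.55, which did not pass (edgeR adjusted p = 0.125) but passed with DESeq2 (adjusted p = 0.0162).

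The cell death genes of the set split into Bax and Bbc3, which fell under compression, and Trp53inp1 and Eda2r, which did not pass the test there against 5d-U cells. Bax (chr7:45461697-45466898, minus strand) encodes the effector that permeabilizes mitochondria. It read 13.0, 33.8 and 19.7 RPKM in F libraries 1, 4 and 5, 135, 158 and 141 in the 2d-U libraries, 284, 316 and 1083 in 5d-U libraries 1, 2 and 6, and 20.3, 81.7 and 32.6 in 2+3d-C libraries 4, 5 and 10. All compressed libraries lay below all uncompressed cultures and overlapped with F. Bax fell 12.5-fold in 2+3d-C against 5d-U cells (log2 fold change -3.65 ± 0.66, edgeR adjusted p = 0.00137). Against 2d-U cells its log2 fold change was -1.69 ± 0.61 (edgeR adjusted p = 0.0552), which passed with DESeq2 (adjusted p = 0.0372). Relative to F it rose 6.49-fold in 2d-U (edgeR adjusted p = 0.00571) and 25.2-fold in 5d-U cells (edgeR adjusted p = 0.000422). Exons of Bax share 12.2% of their length with the gene Gm45808 on the same strand, and reads there could not be assigned to either.

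Bbc3 (chr7:16308393-16318205, plus strand) encodes the BH3-only protein Puma, which frees Bax from its inhibitors. It was lower, with 3.23, 5.07 and 3.34 RPKM in F libraries 1, 4 and 5, 5.25, 5.77 and 5.16 in the 2d-U libraries, 5.53, 12.1 and 11.4 in 5d-U libraries 1, 2 and 6, and 2.46, 0.910 and 0.645 in 2+3d-C libraries 4, 5 and 10. The compressed libraries were again the lowest of the study. Bbc3 fell 7.17-fold in 2+3d-C against 5d-U cells (log2 fold change -2.84 ± 0.69, edgeR adjusted p = 0.00893). Against 2d-U cells it fell by 1.99 ± 0.67 on the log2 scale (edgeR adjusted p = 0.0416), a call that was lost in 11 of the 12 fits that each left out a library, all but that without 2+3d-C library 4. Against F the log2 difference was -1.52 ± 0.66 (edgeR adjusted p = 0.12), which passed with DESeq2 (adjusted p = 0.0145).

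Trp53inp1 (chr4:11156431-11174379, plus strand), which encodes a stress-induced protein that acts in autophagy and cell death, was nearly absent at 2 days. It had 18, 0 and 61 reads, or 0.0525, 0 and 0.209 RPKM, in 2d-U libraries 1, 2 and 3, against 1.95 to 3.80 RPKM in F, 1.72 to 2.23 RPKM in 5d-U and 1.46 to 4.51 RPKM in 2+3d-C libraries. F, 5d-U and 2+3d-C libraries overlapped, and all of them lay above all 2d-U libraries. Trp53inp1 fell by 5.01 ± 1.10 on the log2 scale in 2d-U against F cells (edgeR adjusted p = 0.00398) and was higher by 4.94 ± 1.09 in 2+3d-C (edgeR adjusted p = 0.00485) and by 4.53 ± 1.07 in 5d-U cells (edgeR adjusted p = 0.0449) than in 2d-U cells. The call between 5d-U and 2d-U cells was lost without 5d-U library 6, 2d-U library 1 or 2, or any 1 F library (edgeR adjusted p of 0.0574 to 0.113).

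Eda2r (chrX:97333840-97377216, minus strand), a receptor of the TNF receptor superfamily that binds ectodysplasin, passed in none of the 6 comparisons with edgeR, although 3 had an unadjusted p under 0.05 and DESeq2 called 5d-U and F both above 2d-U cells. Its means were 5.24 ± 1.70 (SD, n = 3) RPKM in F, 2.07 ± 1.34 in 2d-U, 9.05 ± 2.76 in 5d-U and 5.60 ± 3.59 in 2+3d-C cells. The 5d-U libraries (7.73, 12.2 and 7.20 RPKM) lay above all F and 2d-U libraries, with log2 differences of 0.78 ± 0.58 (edgeR adjusted p = 0.438) and 2.13 ± 0.61 (edgeR adjusted p = 0.0729). The compressed libraries 4, 5 and 10 spread from 9.47 through 4.96 to 2.38 RPKM and overlapped with each other group.

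Zmat3 (chr3:32334792-32366014, minus strand) encodes an RNA-binding zinc finger protein that acts on splicing. It read 0.480, 0.586 and 0.538 RPKM in F libraries 1, 4 and 5, 2.02, 3.02 and 1.60 in the 2d-U libraries, 2.77, 2.16 and 1.84 in 5d-U libraries 1, 2 and 6, and 0.102, 0.771 and 0.148 in 2+3d-C libraries 4, 5 and 10. The compressed and F libraries lay below both uncompressed cultures. Zmat3 fell 6.79-fold in 2+3d-C against 5d-U cells (log2 fold change -2.76 ± 0.74, edgeR adjusted p = 0.0154) and 6.63-fold against 2d-U cells (edgeR adjusted p = 0.0152, and 0.0588 without 2d-U library 2). With a term for the 4 libraries with reads on silent genes, the fall against 5d-U cells had an edgeR adjusted p of 0.0577. Over F it rose 4.11-fold in 2d-U cells (edgeR adjusted p = 0.0358), a call that was lost without any 1 library of F or 2d-U (edgeR adjusted p of 0.0591 to 0.097). Reads at the density found on silent genes would make up 27.7% and 33.9% of the Zmat3 reads in F libraries 4 and 5, and at most 9.53% of the reads of any other member in any library with reads on it.

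Counted over the 10 genes, 5 fell and 0 rose in 2+3d-C against 5d-U cells (Bax, Bbc3, Ccng1, Phlda3 and Zmat3), where 13.4% of all 22635 tested genes fell and 9.14% rose. None of the 10 was higher at an unadjusted p under 0.05 either, while DESeq2 called 1, Sesn1. Their median log2 fold change was -1.73, beside -1.05 for all tested genes. The median of all genes was -1.21 without TMM scaling and -0.00013 over genes averaging at least 5 CPM, and the 5 genes fell in each of these fits as well. Over genes averaging at least 5 CPM, as all 10 members do, 2354 of 10816 fell and 2329 rose. These shares are larger than those of all tested genes, which are given beside the other lists too. The 5 calls were also kept in each of the 12 fits that left out 1 library. Bbc3 (log2 fold change -3.17) and Zmat3 (-2.69) lost theirs when the 4 libraries with reads on silent genes were left out. That fit left 1 5d-U library, and fewer of all genes were called in it. Against 2d-U cells, 4 of the 10 fell (Bbc3, Ccng1, Phlda3 and Zmat3) and 1 rose (Trp53inp1), beside 8.63% and 16% of all tested genes. Against F cells, 1 fell (Ccng1) and 1 rose (Trp53), beside 4.47% and 1.94%.

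In culture without compression, more of the 10 genes rose than fell relative to F. In 2d-U against F cells, 4 of the 10 rose (Bax, Phlda3, Trp53 and Zmat3) and 2 fell (Sesn1 and Trp53inp1), where 10.6% of all tested genes rose and 33.3% fell. The median log2 fold change of the 10 was 0.56, beside -1.63 for all tested genes. Over genes averaging at least 5 CPM the median was -0.21, and 1887 of 10816 genes rose and 3054 fell. In that fit the rise of Zmat3 lost its call (edgeR adjusted p = 0.0654) and Eda2r was called lower (0.0365). In 5d-U against F cells, 4 rose (Bax, Ccng1, Phlda3 and Trp53) and 1 fell (Sesn1), beside 11.6% and 8.9%. In 5d-U against 2d-U cells, Trp53inp1 rose and 0 fell (0 at an unadjusted p under 0.05 and with DESeq2), beside 1.87% and 0.243%. When the 4 libraries with reads on silent genes were left out, 1 F library was left, and fewer of all genes were called in every comparison. Phlda3 kept its call in 2d-U against F cells, and Ccng1 and Phlda3 kept theirs in 2+3d-C against 2d-U cells. The other member calls in these comparisons were lost, as were all those in the other comparisons with F. The lost rises over F kept their direction in that fit, with log2 fold changes of 3.50 for Bax, 1.88 for Trp53 and 2.22 for Zmat3 in 2d-U cells (2.70, 1.65 and 2.04 with all libraries). In 5d-U cells they were 4.61 for Bax, 3.95 for Ccng1, 4.34 for Phlda3 and 1.21 for Trp53 (4.66, 2.60, 3.6 and 2.02), and for Trp53 in 2+3d-C cells 2.30 (2.08). The lost falls against F were -2.28 for Sesn1 and -5.40 for Trp53inp1 in 2d-U cells (-1.76 and -5.01 with all libraries) and -1.89 for Sesn1 in 5d-U cells (-1.77). For Ccng1 in 2+3d-C cells the lost fall shrank to -1.145 (-2.03 with all libraries). These comparisons share libraries, so that the falls against 5d-U and the rises of 5d-U over F are not independent. With 3 libraries in each group, an exact permutation test of a single gene cannot give a p below 0.1 and none was made.

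**Figure D2:**
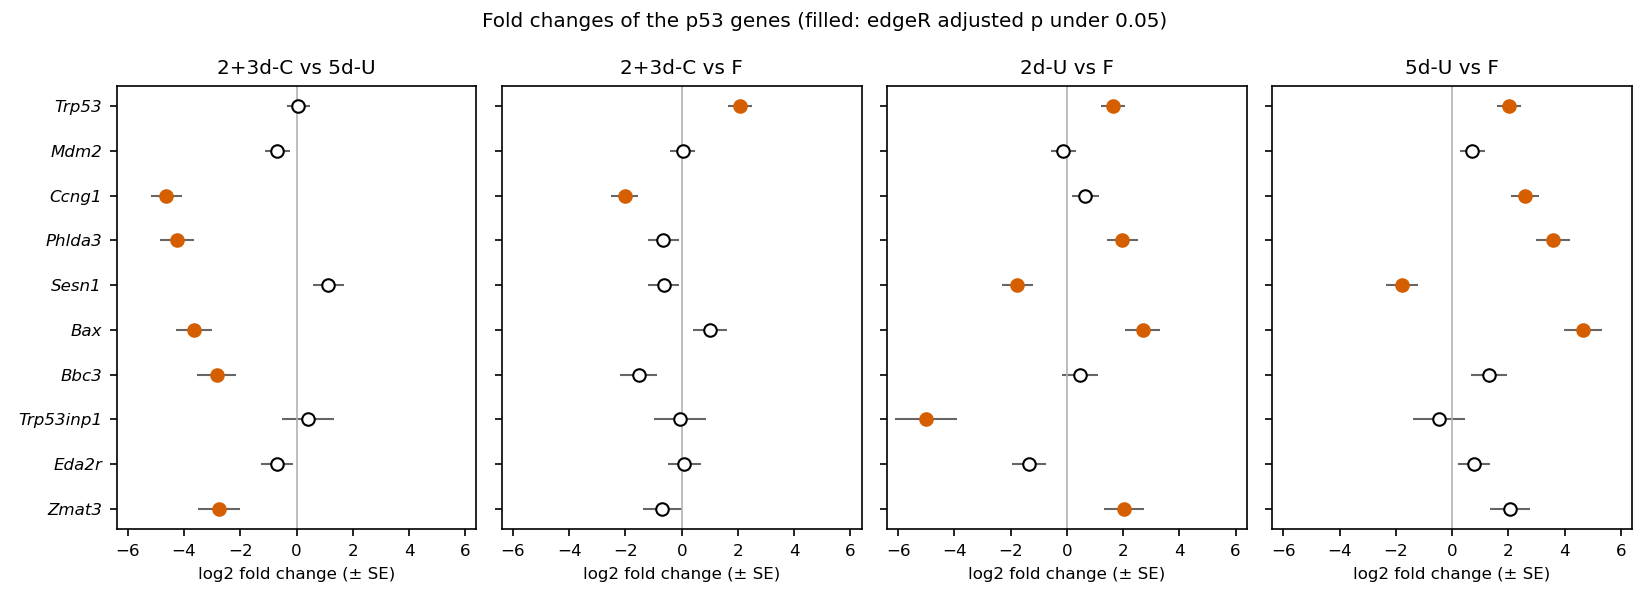
log2 fold changes (points) with their SE (bars) of the 10 p53 genes in 4 comparisons, with filled points for an edgeR adjusted p under 0.05. In 2+3d-C against 5d-U cells the 5 filled points all lie below 0, and in 2d-U and 5d-U against F cells 4 lie above 0 in each.

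Of 20 regulators and relatives of p53, all tested, 3 rose and 3 fell in 2+3d-C against 5d-U cells. These counts are close to the shares of all tested genes (9.14% rose and 13.4% fell). The median log2 fold change of the list was 0.77, beside -1.05 for all tested genes and -0.00013 for genes averaging at least 5 CPM. The 3 that rose were Hipk2, a kinase that phosphorylates p53 (log2 fold change 3.22 ± 0.57, edgeR adjusted p = 0.00133), Crebbp, an acetyltransferase and coactivator (2.17 ± 0.52, edgeR adjusted p = 0.00814), and Usp7, which removes ubiquitin from p53 and Mdm2 (1.74 ± 0.51, edgeR adjusted p = 0.0236). The 3 that fell were the kinases Atm and Chek1, which relay DNA damage to p53, and Rchy1, a ubiquitin ligase of p53. Atm had 23, 0 and 0 reads in 2+3d-C libraries 4, 5 and 10, against 416, 237 and 247 in 5d-U libraries 1, 2 and 6. Chek1 had 128, 0 and 7 reads there, against 895, 1070 and 519, and like the dividing cell markers it was high in 2d-U (9.70 ± 0.85 RPKM, SD, n = 3) and low in F cells (0.666 ± 0.040). Rchy1 had a log2 fold change of -2.27 ± 0.58 (edgeR adjusted p = 0.0119). Its exons share 18.0% of their length with a gene on the opposite strand, and the counts do not use strand. Mdm4, the relative of Mdm2 that blocks p53, read 3.57 ± 1.25 RPKM in 2+3d-C and 1.97 ± 0.46 in 5d-U cells (edgeR adjusted p = 0.161). Cdkn2a, whose Arf product inhibits Mdm2, had 49, 0 and 0 reads in 2+3d-C and 61, 61 and 231 in 5d-U libraries (edgeR adjusted p = 0.097). In 2+3d-C against F cells, 1 of the 20 fell (Atm, log2 fold change -5.11 ± 1.19, edgeR adjusted p = 0.0269) and 0 rose with edgeR (1 at an unadjusted p under 0.05, and 1 with DESeq2), beside 4.47% and 1.94% of all tested genes.

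Other p53 targets moved in both directions. Of 33 such genes in 3 lists (cell cycle and growth, cell death, DNA repair and metabolism), 32 were tested. In 2+3d-C against 5d-U cells 8 rose and 7 fell, where 9.14% of all tested genes rose and 13.4% fell. Over genes averaging at least 5 CPM, 2329 of 10816 rose and 2354 fell. These larger shares also apply to the lists below in this comparison. The median log2 fold change of these targets was -0.05, beside -1.05 for all tested genes and -0.00013 for genes averaging at least 5 CPM. In 2+3d-C against 2d-U cells 14 rose and 7 fell, beside 16% and 8.63% of all tested genes. Over genes averaging at least 5 CPM, 2828 and 1688 of 10816 did. In 2d-U against F cells 5 rose and 16 fell, beside 10.6% and 33.3%, and in 5d-U against F cells 5 rose and 8 fell, beside 11.6% and 8.9%. Of 10816 genes averaging at least 5 CPM, 1887 rose and 3054 fell in the former and 2462 and 2609 in the latter. In 5d-U against 2d-U cells 3 rose, beside 1.87%, and in 2+3d-C against F cells 1 rose and 2 fell, beside 1.94% and 4.47%. Cdkn1a, which encodes the cyclin-dependent kinase inhibitor p21, read 126, 169 and 123 RPKM in F libraries 1, 4 and 5, 46.3, 49.5 and 48.8 in the 2d-U libraries, 182, 170 and 769 in 5d-U libraries 1, 2 and 6, and 153, 505 and 215 in 2+3d-C libraries 4, 5 and 10. The 2d-U libraries were the lowest, and the 5d-U and compressed libraries overlapped. Cdkn1a had a log2 difference of -0.36 ± 0.57 in 2+3d-C against 5d-U cells (edgeR adjusted p = 0.634), and rose 6.04-fold against 2d-U cells (edgeR adjusted p = 0.00665), as 5d-U cells did 7.77-fold (edgeR adjusted p = 0.029). Exons of Cdkn1a share 7.68% of their length with a gene on the opposite strand, and the counts do not use strand.

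Of the 13 cell cycle and growth targets, 5 rose and 2 fell in 2+3d-C against 5d-U cells, beside 9.14% and 13.4% of all tested genes. Btg2, an antiproliferative cofactor of mRNA deadenylation, read 402, 399 and 242 RPKM in 2+3d-C libraries 4, 5 and 10, against 16.2, 15.9 and 38.3 in 5d-U libraries 1, 2 and 6, 1.69 to 4.22 in the 2d-U libraries and 213 to 264 in the F libraries. It rose 14.8-fold over 5d-U cells (edgeR adjusted p = 0.00013), and its compressed and F libraries overlapped. The polo-like kinases Plk2 and Plk3, the 14-3-3 gene Sfn and the sestrin Sesn2 rose by log2 fold changes of 2.23 ± 0.52, 2.61 ± 0.45, 7.09 ± 1.44 and 2.42 ± 0.56. Sfn had 1367, 667 and 513 reads in 2+3d-C libraries 4, 5 and 10. In 5d-U libraries 1, 2 and 6 it had 9, 6 and 7 reads, so that its fold rests on few reads there. Gtse1, a mitotic gene that restrains p53, had 90, 0 and 0 reads in 2+3d-C libraries 4, 5 and 10 against 2281, 3638 and 1169 in 5d-U libraries 1, 2 and 6 (edgeR adjusted p = 0.00472). Ei24, an endoplasmic reticulum protein of autophagy, fell 2.63-fold (edgeR adjusted p = 0.0209). In 2d-U against F cells, 10 of the 13 fell and 1 rose, beside 33.3% and 10.6% of all tested genes. None passed with edgeR in 2+3d-C against F cells (2 at an unadjusted p under 0.05, both lower, and 2 with DESeq2), beside 1.94% higher and 4.47% lower over all tested genes.

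Of the 8 other cell death targets, 1 rose and 2 fell in 2+3d-C against 5d-U cells, beside 9.14% and 13.4% of all tested genes. Fas, a death receptor, read 89.4, 218 and 87.6 RPKM in 2+3d-C libraries 4, 5 and 10 and 2.90, 0.812 and 1.75 in 5d-U libraries 1, 2 and 6, and the F libraries (48.2 to 153 RPKM) overlapped with the compressed ones. It rose 72.2-fold (edgeR adjusted p = 0.00116). Pidd1, a scaffold for caspase activation, had 2, 0 and 0 reads in the compressed libraries and lay at least 95.2-fold below 5d-U cells, counted against 3 reads per library (edgeR adjusted p = 0.000108). Siva1, a death domain adaptor, fell 8.26-fold (edgeR adjusted p = 0.00114). Aen, an apoptosis nuclease, was the 1 cell death target that rose in 2+3d-C against F cells (4-fold, edgeR adjusted p = 0.0098), and it rose in 2d-U and 5d-U against F cells too.

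Of 11 DNA repair and metabolism targets tested, 2 rose and 3 fell in 2+3d-C against 5d-U cells, beside 9.14% and 13.4% of all tested genes. The median log2 fold change of the list was -0.99, beside -1.05 for all tested genes and -0.00013 for genes averaging at least 5 CPM. Dram1, a lysosomal membrane protein, rose 12.5-fold (edgeR adjusted p = 0.00131), and Ephx1, an epoxide hydrolase of detoxification, 12.6-fold (edgeR adjusted p = 0.000118). Polk, a translesion DNA polymerase, had 0 reads in all 3 compressed libraries and lay at least 111-fold below 5d-U cells (edgeR adjusted p = 3.296e-05) and at least 34.2-fold below F cells (edgeR adjusted p = 0.00061), counted against 3 reads per library. Tigar, a phosphatase of sugar metabolism, fell 26.3-fold (edgeR adjusted p = 0.0135) and Pank1, a pantothenate kinase, 9.67-fold (edgeR adjusted p = 0.0461). In 2+3d-C libraries 4, 5 and 10, Tigar had 131, 2 and 0 reads and Pank1 215, 26 and 0. In 5d-U libraries 1, 2 and 6, they had 311, 748 and 740 and 270, 795 and 612. Rchy1, Sesn2, Ei24, Tigar and Pank1 lie outside the rule for named genes and were chosen after their values were seen.

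**Figure D3:**
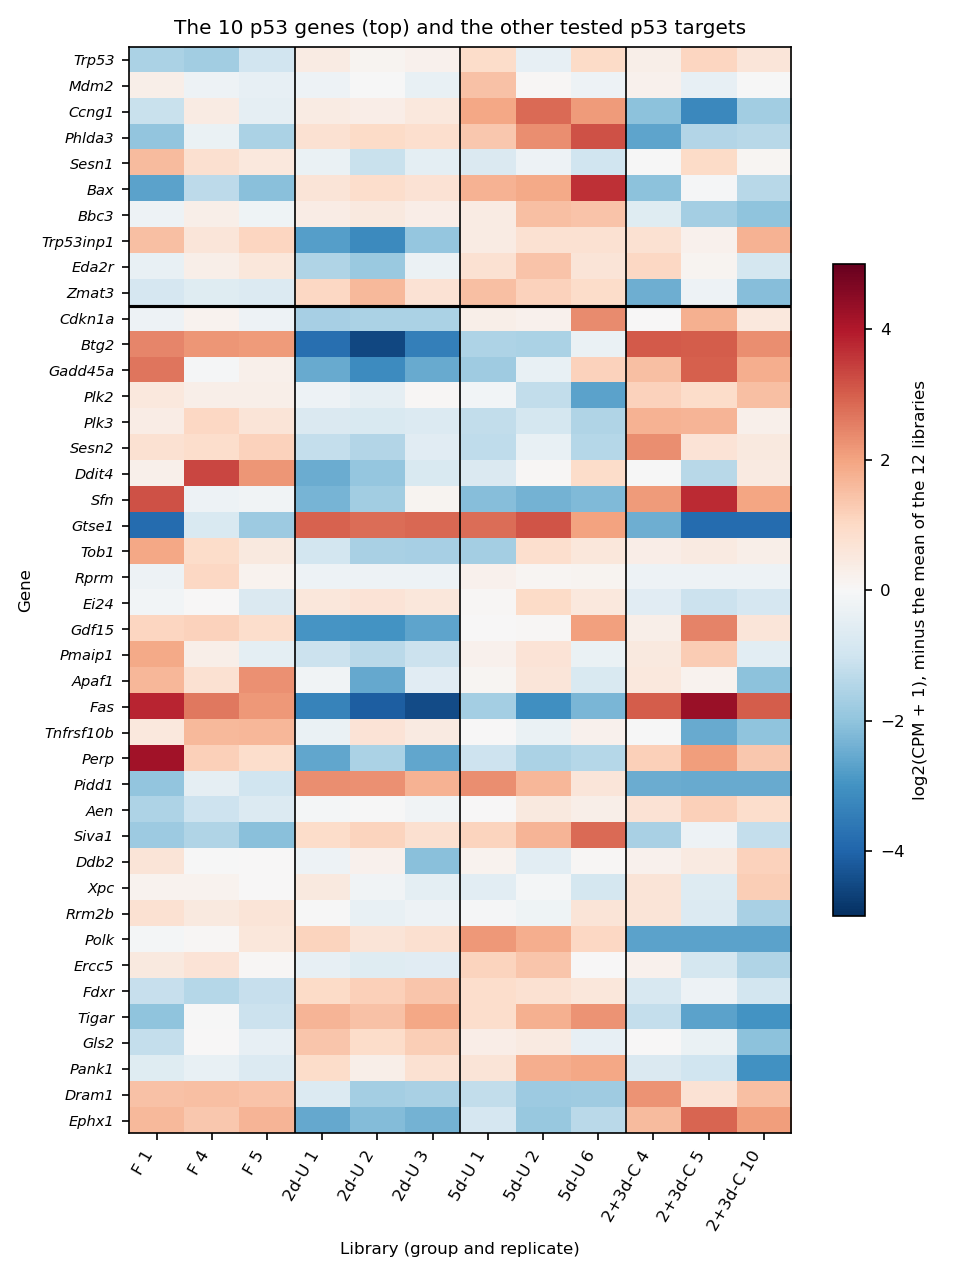
log2(CPM + 1) of the 10 p53 genes (above the line) and of 32 other tested p53 targets (below it) in the 12 libraries, each gene minus its mean over the libraries, from blue (low) to red (high). In the 2+3d-C libraries Ccng1, Phlda3, Bax, Bbc3 and Zmat3 are low while Btg2, Fas, Dram1 and Ephx1 are high, as the latter are in F libraries.

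Bax works beside the other members of the Bcl2 family, of which 12 were listed and tested. In 2+3d-C against 5d-U cells, 3 rose and 4 fell, beside 9.14% and 13.4% of all tested genes. None passed with edgeR in 2+3d-C against F cells (1 higher and 1 lower at an unadjusted p under 0.05, and 1 with DESeq2), where 1.94% of all tested genes rose and 4.47% fell. Mcl1, a survival gene and the most abundant of the 12 per length in compressed cells, read 479, 349 and 288 RPKM in 2+3d-C libraries 4, 5 and 10 and 49.9, 39.3 and 34.0 in 5d-U libraries 1, 2 and 6 (9.04-fold higher, edgeR adjusted p = 0.000156). The mean level of Bax was 44.9 ± 32.5 RPKM (SD, n = 3) in 2+3d-C against 561 ± 452 in 5d-U cells, so that the order of Bax and Mcl1 differed between these groups. The mean of Mcl1 in F cells was 369 ± 162 RPKM (SD, n = 3), beside 22.2 ± 10.6 for Bax. Bcl2l11, which encodes the BH3-only protein Bim, rose by 2.51 ± 0.67 on the log2 scale (edgeR adjusted p = 0.0149), and Bcl2, a survival gene, by 1.97 ± 0.67 (edgeR adjusted p = 0.0466). Bcl2l1, which encodes the survival protein Bcl-xL, fell 5.64-fold (edgeR adjusted p = 0.00494), Bid 4.97-fold (edgeR adjusted p = 0.00368), Bok 3.68-fold (edgeR adjusted p = 0.0126) and Bad 6.15-fold (edgeR adjusted p = 0.0254). Exons of Bid and Bad share 17.7% and 20.5% of their length with genes on the opposite strand, and the counts do not use strand. Bcl2 and Bad were chosen after their values were seen.

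**Figure D4:**
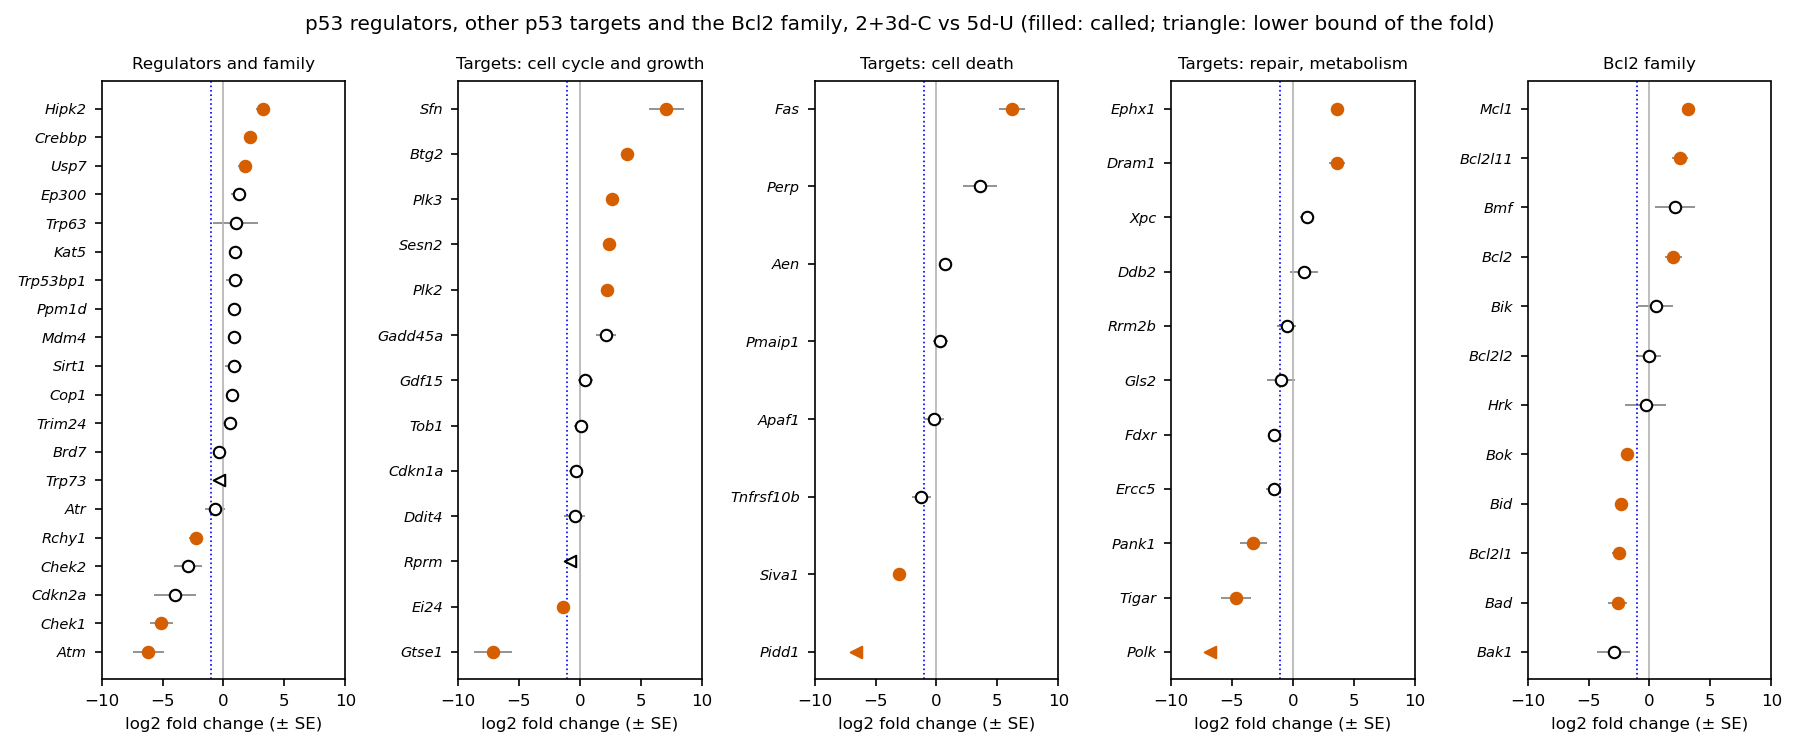
log2 fold changes (points) with their SE (bars) in 2+3d-C against 5d-U cells of the p53 regulators, 3 lists of other p53 targets and the Bcl2 family, with filled points for an edgeR adjusted p under 0.05, triangles for the smallest fold that 3 reads per library allow, and a dotted line at the median of all tested genes (-1.05). Filled points lie on both sides of 0 in each of the 5 panels.

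Among 10762 genes averaging at least 5 CPM, those most like Mdm2 over the 12 libraries, by the root mean square difference of their centred log2 CPM, were Lrif1 (0.40), Cep192 (0.41) and Eef1a1 (0.42), beside a root mean square of 0.49 for Mdm2 itself around its own mean. Those most like Trp53 were its pseudogene Trp53-ps (0.21), Surf2 (0.30) and Wdr74 (0.32), beside 0.93 for Trp53 itself. Within the 10 genes, the nearest pair was Phlda3 and Bax (0.64), followed by Ccng1 and Phlda3 (0.86) and Ccng1 and Bbc3 (0.87). These distances describe 12 libraries in 4 groups and share the groups' differences.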

How the data were processed

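Counts of mouse RNA-seq reads were analysed for 12 MuSC libraries, with 3 libraries in each of the 4 groups, grouped by their labels. The authors amplified cDNA with a SMART-seq v4 kit, mapped the single-end reads on mm10 by the nf-core workflow and deposited raw counts per gene, made by featureCounts 1.6.4 on GENCODE exons without regard to strand and without normalization. A merged table with the same counts was not used. Reads on genes ranged from 12540745 to 62424851 per library, and this depth and 3 libraries per group limit the precision.

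In R 4.3.3, edgeR 4.0.16 kept 22635 genes (filterByExpr) and fitted a quasi-likelihood model with TMM scaling and a coefficient per group to all libraries. Tests were two-sided with Benjamini-Hochberg adjustment over all tested genes, and genes were called at an adjusted p under 0.05. The procedure was tested on simulated data. Folds against groups with 3 reads or fewer in every library are given against 3 reads per library, as limits that cover counting error only. RPKM used the exon lengths in the files.

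The 10 members were all named. Of each other list, Cdkn1a, Cdkn2a and Mdm4, the 3 most abundant tested genes by mean CPM and the 3 of lowest p in 2+3d-C against 5d-U, 2+3d-C against F and 2d-U against F could be named, and as likeness the 3 genes nearest to Mdm2 and to Trp53. Members and lists were chosen with earlier results of these data known. Alternatives were DESeq2 1.42.0, no TMM scaling, no filter, a mean of at least 5 CPM, a replicate block, fits of 2 groups alone, subtraction of or a term for reads on silent gene families, each library left out in turn, and, added after the data were seen, leaving out the 4 libraries in which these exceed 0.5 reads per kb.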

Additional observations from a re-analysis of the deposited data

How the results depend on the processing

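Of 1260 refits of the members' log2 fold changes (21 settings for each of 10 genes in 6 comparisons), 1077 kept direction and call, 86 lost a call, 39 gained one and 58 changed sign, none of them for a called difference. The counts of called members were 5 in 2+3d-C against 5d-U, 5 against 2d-U and 2 against F cells, 1 in 5d-U against 2d-U, 6 in 2d-U against F and 5 in 5d-U against F cells. Leaving out each library in turn gave 5 to 5, 3 to 5, 0 to 2, 0 to 3, 4 to 7 and 3 to 6, in this order. Calls over all genes, of which 22743 to 27915 were tested, varied in those fits too. In 2+3d-C against 5d-U cells 1338 to 2408 rose and 1727 to 3045 fell, and against 2d-U cells 2340 to 3643 and 1385 to 2096. Against F cells 26 to 1185 rose and 222 to 8878 fell. In 5d-U against 2d-U cells these were 142 to 1239 and 11 to 129. In 2d-U against F cells 1276 to 2773 rose and 3584 to 14107 fell, and in 5d-U against F cells 1587 to 2954 and 1303 to 2333. Leaving out the 4 libraries with reads on silent genes leaves 1 library each in F and 5d-U, which is assumed to vary like the others. In that fit fewer of all genes were called in every comparison. The member calls that it lost are named above, beside that of Trp53inp1 in 5d-U against 2d-U cells. The labels do not say whether same-numbered libraries share a batch of sorted cells, and the paper states that sorted batches were split at random over the conditions. The correlations of the deviations of same-numbered libraries from their group means ranged from -0.42 to 0.03. So few correlations cannot show whether a batch was shared, and the main fit used no pairing. With a replicate block, which leaves 2 residual degrees of freedom, the counts were 3, 3, 2, 2, 2 and 3. Of all 22635 tested genes, 728, 1090, 270, 642, 588 and 432 rose and 3098, 836, 1690, 33, 2151 and 829 fell, in this order. In 2+3d-C against F cells, fitting these groups alone or a term for reads on silent genes gave 1. Over all genes, these fits called 125 higher and 1400 lower of 16696, and 23 and 182 of 22635. In 5d-U against 2d-U cells the count was 0 without TMM scaling, with silent reads subtracted or with the term. Over all genes 126, 94 and 36 rose and 45, 45 and 5 fell there. The count was 3 without the filter and with DESeq2, and 2 over genes that average at least 5 CPM. Over all genes 1867, 3109 and 249 rose and 199, 404 and 62 fell there. The causes were not tested. Differences that changed sign were, without TMM scaling, Trp53 in 2+3d-C against 5d-U (-0.11) and 2d-U (-0.19) and in 5d-U against 2d-U (-0.0782), Mdm2 in 2+3d-C against 2d-U (-0.41) and F (-0.39) and in 2d-U against F (0.0178), Eda2r in 2+3d-C against F (-0.43) and Zmat3 in 5d-U against 2d-U (-0.35). With the replicate block they were Trp53 in 2+3d-C against 5d-U (-0.27) and 2d-U (-0.28) and in 5d-U against 2d-U (-0.0115), Trp53inp1 in 2+3d-C against 5d-U (-0.15), and Sesn1 (0.27) and Zmat3 (-0.00785) in 5d-U against 2d-U. Mdm2 in 2+3d-C against F was -0.22 over genes of at least 5 CPM on average, -0.20 in these groups alone, -0.11 with silent reads subtracted, -0.33 without the 4 libraries and -0.18 with DESeq2, and Eda2r was -0.19, -0.20, -0.0634 and -0.17 in the same settings other than the fourth. Zmat3 in 5d-U against 2d-U was -0.23 without the filter, -0.28 in these groups alone, -0.19 with silent reads subtracted, -0.0778 with the term, -0.0422 without the 4 libraries and -0.19 with DESeq2. With the term and without the 4 libraries, Trp53 in 5d-U against 2d-U was -0.27 and -0.67, and Sesn1 0.48 and 0.39. Without the 4 libraries, Phlda3 in 2+3d-C against F was 0.25 and Mdm2 in 5d-U against F -0.23. Leaving out single libraries gave ranges across 0 for Eda2r (-0.52 to 0.47), Mdm2 (-0.11 to 0.19), Phlda3 (-1.09 to 0.0304) and Trp53inp1 (-0.62 to 0.25) in 2+3d-C against F, Mdm2 in 2+3d-C against 2d-U (-0.0038 to 0.30) and 5d-U (-0.99 to 0.0265) and in 2d-U against F (-0.26 to 0.0185), Trp53 (-0.27 to 0.34) and Trp53inp1 (-0.17 to 0.72) in 2+3d-C against 5d-U, and Sesn1 (-0.32 to 0.17) and Zmat3 (-0.27 to 0.32) in 5d-U against 2d-U.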
